A study of Mus musculus with 24 samples.

Results

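The subject here is the genes of major histocompatibility complex (MHC) class I presentation, a set of 10 genes listed by symbol and not by their values. The set holds the heavy chains H2-K1, H2-D1 and H2-T23, the light chain B2m, the paired transporter subunits Tap1 and Tap2, the loading factor Tapbp, the immunoproteasome subunits Psmb8 and Psmb9, and the transactivator Nlrc5. All 10 stood in the deposited tables at both ages, among 20636 genes. All 10 also passed the filter of a mean of at least 1 TPM (a transcript's share of the library after division by its length, in units of 1 per M, where M is mega), which kept 11587 genes at 3 months and 11792 at 17 months. The libraries came from CD11b-positive cells collected with magnetic beads from whole brains of C57BL/6J mice, a preparation dominated by microglia, the resident macrophages of the brain. The groups were wild-type mice (WT), heterozygous knockouts (HET) and homozygous knockouts (HOM) of C9orf72 (3110043O21Rik), each sampled at 3 and at 17 months, with 4 animals in each of the 6 groups and 24 in all. No treatment is labelled, and the labels do not say which bases the knockout allele lacks or which cells besides microglia lack the gene. Animals are named by genotype and the number that heads their table column.

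Class I molecules show short peptides from inside the cell to CD8 T cells. Proteasomes cut proteins into peptides, Tap1 and Tap2 pump these into the endoplasmic reticulum, and Tapbp holds the empty heavy chain and its B2m partner beside the pump until a peptide fits. Interferons raise the whole pathway in microglia, put Psmb8 and Psmb9 into the proteasome in place of the constitutive Psmb5 and Psmb6, and act partly through Nlrc5, which drives class I promoters.

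The targeted transcript checked the labels. In the younger mice WT gave 22.8 ± 2.23 TPM, HET 9.73 ± 1.75 (42.6% of WT) and HOM 0.139 ± 0.0918 (SD, n = 4). The older WT, HET and HOM mice gave 14.9 ± 1.48, 7.2 ± 1.53 (48.5% of WT) and 0.036 ± 0.0158 TPM. Libraries held from 21.8 to 33.8 M alignments at 3 months and from 16.7 to 46.4 M at 17 months, with the HOM libraries deepest on average at both ages. All 10 microglial markers were present, with a summed level from 28813.5 to 34918.3 TPM at 3 months and from 17356.6 to 25523.0 TPM at 17 months. Sex, read from 4 Y-linked genes, was unbalanced, with 1 male in WT, 4 in HET and 2 in HOM at 3 months, and 1, 0 and 3 at 17 months. In HOM-7899 the 7 monocyte markers summed to 801 TPM, against 154 to 241 in the other 17-month HOM animals, and its erythrocyte markers summed to 2072.7 TPM. In HET-8304 the oligodendrocyte markers summed to 2534.2 TPM, against 675 to 929 in the other 3-month HET animals.

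Group means of the 10 genes ran from 4.24 TPM (Nlrc5 in 3-month HET) to 6475.6 TPM (B2m in 17-month WT). B2m led in every group, followed by H2-D1, H2-K1 and H2-T23, and Nlrc5 was lowest. At 3 months the WT means were 4143.1 ± 192 TPM for B2m, 913 ± 123 for H2-D1, 677 ± 81.7 for H2-K1 and 396 ± 27.9 for H2-T23 (SD, n = 4). The processing genes formed a middle tier, with Tapbp at 256 ± 13, Psmb8 at 194 ± 9.65, Psmb9 at 131 ± 5, Tap2 at 114 ± 4.63 and Tap1 at 60.9 ± 2.05 TPM. Nlrc5 stood at 5.2 ± 1.06 TPM. In bulk libraries such as these, a difference in the number of cells of a type and a difference in RNA per cell cannot be told apart.

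**Figure D1:**
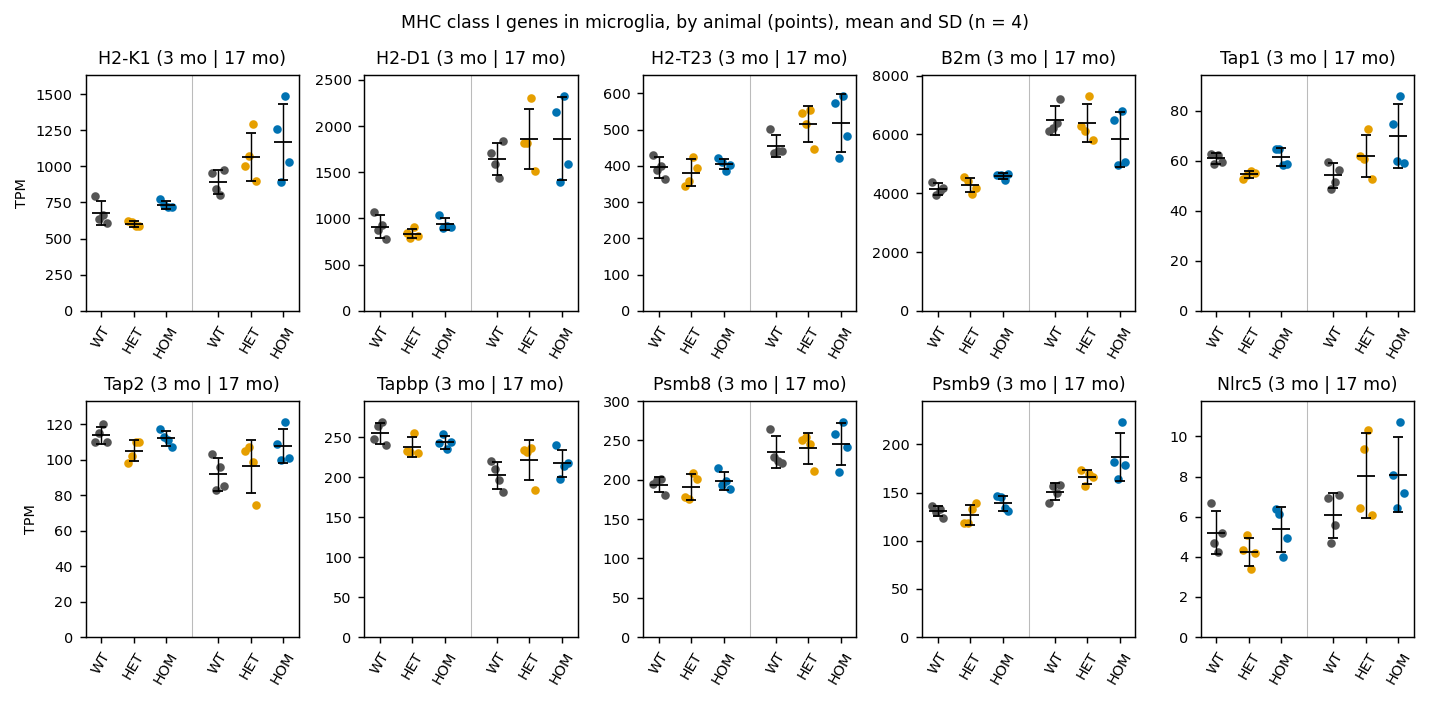
Level of each of the 10 genes in TPM (vertical axes, from 0), with 1 point per animal and the mean and SD of each genotype (n = 4) in black, for 3 months on the left and 17 months on the right of each panel. For H2-K1, H2-D1, H2-T23, B2m and Psmb9 the 17-month points lie above the 3-month points of the same genotype, and the genotypes of an age mostly overlap.

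Of these genes, 8 lie in the MHC on chromosome 17, from 33915899 to 36032855 (GRCm38, GENCODE annotation), a stretch of 2.12 megabases that begins with Tapbp and ends with H2-T23. H2-K1 (33996017 to 34000347, minus strand) and H2-D1 (35262730 to 35267499, plus strand) stand apart within it, while Psmb9, Tap1, Psmb8 and Tap2 follow each other between 34181987 and 34216321. Psmb9 and Tap1 run in opposite directions, and their annotated 5′ ends overlap. B2m lies on chromosome 2 (122147686 to 122153083, plus strand) and Nlrc5 on chromosome 8 (94434356 to 94527272, plus strand). The heavy chains resemble other class I genes. Stretches of 75 bases, the read length of the libraries, were looked up in the transcripts of other genes. Of those in the H2-K1 transcript 1.55% also occur there, of those in H2-D1 6.9% and of those in H2-T23 13.1%. Tapbp shared 0.992% and the other 6 genes 0%. Only exact matches of the longest protein-coding transcript were counted, and the uncertainty of the levels was not computed.

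Promoter sequence (RefSeq, GRCm38.p6) was matched for 8 of the 10 genes, all but Tap2 and Nlrc5. The 250 bases before each start were searched on both strands for 4 motifs of class I promoters, which may overlap each other. These were the consensus bound by NF-kB, the interferon regulatory factor core AANNGAAA, the cyclic AMP response core TGACG and the CCAAT box CCAAT. Over all 32851 promoters they occurred in 7.25%, 21.3%, 17.8% and 33.8%, and all 4 together in 27 promoters (0.0822%). H2-K1, H2-D1 and B2m were among those 27. The motifs were chosen as those of class I promoters, so this is a description and no test of enrichment. The stretches of H2-K1, a classical heavy chain, and of B2m, the chain that all class I complexes share, are shown because they hold all 4 motifs, with matches in capitals, 5′ to 3′ on the strand of the gene. H2-K1 is given from 115 to 11 bases before its start (chr17:34000358-34000462, minus strand), and B2m from 140 to 48 bases before its start (chr2:122147547-122147639, plus strand).
H2-K1: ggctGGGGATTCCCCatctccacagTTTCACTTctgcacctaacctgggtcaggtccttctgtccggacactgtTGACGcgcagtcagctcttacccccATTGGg
B2m: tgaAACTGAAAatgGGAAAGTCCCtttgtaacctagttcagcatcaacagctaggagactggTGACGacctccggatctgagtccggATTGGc
In H2-K1 the NF-kB match comes first and the interferon regulatory factor match second, and in B2m that order is turned. In both, the cyclic AMP response core and the CCAAT box, read on the reverse strand, follow toward the start.

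The stretch that carries the first pair of matches was compared between the classical heavy chains over 29 bases, at chr17:34000430-34000458 (minus strand) for H2-K1 and chr17:35262923-35262951 (plus strand) for H2-D1. The H2-D1 stretch lies before the RefSeq start but within the GENCODE span of the gene given above, where it overlaps an annotated untranslated region of H2-D1.
H2-K1: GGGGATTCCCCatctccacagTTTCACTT
H2-D1: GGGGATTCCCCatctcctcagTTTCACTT
They differed by the single substitution A18T, with the H2-K1 base first and positions counted from 1 at the 5′ end of the printed stretch. Over 105 bases aligned on these matches, 94 were identical (89.5%). H2-T23 held the interferon regulatory factor core and a CCAAT box, Tapbp CCAAT boxes alone, and Psmb8 none of the 4. Tap1 and Psmb9 held the cyclic AMP response core and a CCAAT box. These are the same bases for both genes, 34187470 to 34187474 and 34187334 to 34187338, because their searched windows overlap. These matches are letters in a fixed window and were not tested for binding.

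The ages stand in separate deposited tables, so levels are set side by side without a test. At 17 months H2-D1 was at 1.8 times its 3-month WT mean, 2.22 times in HET and 1.99 times in HOM. H2-K1 was at 1.32, 1.77 and 1.59 times, and B2m at 1.56, 1.49 and 1.27 times. Levels of H2-K1, H2-D1, H2-T23, B2m and Psmb9 at 17 months exceeded those at 3 months without overlap in all 3 genotypes, in the TPM tables and also in the RPKM tables (reads per kilobase and M alignments). Psmb8 did so in WT and HET by TPM and in all 3 genotypes by RPKM. Nlrc5 did so in HET (1.89 times by TPM) and HOM (1.51 times) by both units, but overlapped in WT (1.17 times). By TPM the transporter genes and Tapbp did not lie higher without overlap in any genotype. In WT, Tap2 and Tapbp at 17 months were at 0.806 and 0.792 times their 3-month means by TPM, below them without overlap, but at 1.01 and 1 times by RPKM, with overlap. Counted by TPM, 6 of the 10 genes in WT, 7 in HET and 6 in HOM lay higher at 17 months without overlap, as did 6.87%, 4.23% and 12.4% of the 11436 genes that passed the filter at both ages. By RPKM these counts were 6, 8 and 9 of 10, against 17.7%, 8.32% and 25.7% of all genes. The 2 genes lower in WT by TPM stood beside 52.2% of all genes that were lower there without overlap.

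Loss of both gene copies at 3 months was asked first. The class I genes of HOM and WT differed little. The median log2 difference of the 10 genes was 0.038, against -0.099 over all genes tested, and 8 of 10 values were above 0, against 24.8% of all genes. With each library centred on its median, the 10 genes had a median of 0.15, against 0.014 for all genes, and all 10 were above 0. By limma with Benjamini-Hochberg adjustment, 0 of 10 genes were called at an adjusted p under 0.05, against 0.0604% of all genes tested, and 1 of 10 had an unadjusted p under 0.05, against 19.7% of all genes. In 1 gene, B2m, all HOM animals lay above all WT animals, as did 1.78% of all genes, and in 0 genes they lay below, as did 15.1% of all genes. Of 12 marker lists, 1 did not overlap between these groups, that of endothelial and mural cells. Its sums were 147 to 425 TPM in WT and 81.7 to 127 in HOM. Other lists overlapped but reached higher in HOM, among them neutrophil markers (771 to 2440.0 TPM in WT, 1816.8 to 4761.6 in HOM). Monocyte markers summed to 52.5 to 105 TPM in WT and 91.9 to 264 in HOM. The part of these cells in the class I values was not tested. Each comparison within an age shares a group with the others, so these counts are not independent of those below.

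B2m, the light chain of every class I complex, stood at 4394.1, 3940.2, 4070.6 and 4167.7 TPM in the 3-month WT animals, at 4538.5, 4430.9, 3980.2 and 4175.2 in HET, and at 4619.4, 4610.3, 4447.0 and 4658.4 in HOM. The HOM animals lay above WT, while HET overlapped both. The HOM minus WT difference was 0.15 on the log2(TPM + 1) scale (95% interval from 0.023 to 0.27, adjusted p = 0.195 by limma).

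The classical heavy chain H2-K1 stood at 795, 638, 664 and 611 TPM in WT, at 619, 616, 585 and 586 in HET, and at 774, 732, 717 and 717 in HOM. The HET animals lay closest together, all of them below every HOM animal, and WT overlapped both groups, with WT-8322 highest of all 12 animals. HOM minus HET was 0.29 (95% interval from 0.13 to 0.45, adjusted p = 0.356), HET minus WT was -0.16 (from -0.32 to -0.0066, adjusted p = 0.216) and HOM minus WT was 0.12 (from -0.032 to 0.28, adjusted p = 0.356). Without WT-8322, HET minus WT was -0.084 (adjusted p = 0.386) and HOM minus WT was 0.20 (adjusted p = 0.139). WT-8322 was also the WT library with the highest summed neutrophil markers, 2440.0 TPM, and erythrocyte markers, 1105.2 TPM, and their part in its level was not tested. H2-D1, the second classical heavy chain, ranged from 777 to 1071.8 TPM in WT, from 788 to 904 in HET and from 896 to 1042.5 in HOM. H2-T23, which encodes the non-classical chain Qa-1 that engages receptors on natural killer and CD8 T cells, ranged from 363 to 431, from 344 to 426 and from 387 to 421 TPM. Its 3 genotypes overlapped.

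Loss of 1 copy at 3 months gave a median log2 difference of -0.11 from WT, against -0.089 over all genes, with 1 of 10 values above 0, against 29.1% of all genes. This direction depended in part on the scale. With libraries centred on their medians 5 of 10 values were above 0, but after quantile normalization 2 of 10 were. By RPKM 3 of 10 values were above 0, and with sex as a term in the model 1 of 10. By limma 0 of 10 were called, against 0.0432% of all genes, and 3 of 10 (H2-K1, Tap1 and Tap2) had an unadjusted p under 0.05, against 21.6% of all genes. In Tap1 and Tap2 all HET animals lay below all WT animals (in Tap2 by less than the rounding shown), as in 9.99% of all genes.

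Tap1, which pairs with Tap2 to form the peptide pump, stood at 62.9, 58.9, 62.5 and 59.4 TPM in WT, at 52.8, 54.4, 56 and 55 in HET, and at 64.7, 64.9, 58.2 and 58.9 in HOM. The HET animals lay below both other genotypes, which overlapped each other. HET minus WT was -0.16 (95% interval from -0.27 to -0.039, adjusted p = 0.136) and HOM minus HET was 0.17 (from 0.055 to 0.29, adjusted p = 0.386). Its partner Tap2 ranged from 110 to 120 TPM in WT, from 98.1 to 110 in HET and from 107 to 117 in HOM, with HET minus WT at -0.12 (from -0.24 to -0.001, adjusted p = 0.228). All 4 HET animals were male by their Y-linked transcripts, and neuronal markers summed to 12.5 to 56.7 TPM in HET and 5.58 to 9.18 in WT, the 1 list without overlap. Neutrophil markers overlapped, at 1568.3 to 5063.2 TPM in HET and 771 to 2440.0 in WT, as did monocyte markers, at 70.4 to 136 and 52.5 to 105. The part of these cells in the class I values was not tested. With sex as a term in the model the median of the 10 genes was -0.078, and the smallest adjusted p among them was 0.397.

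Between HOM and HET at 3 months all 10 values were above 0, with a median of 0.11, against 0.0013 over all genes, of which 50.5% were above 0. All 10 were also above 0 with libraries centred on their medians, after quantile normalization and in the RPKM tables. By limma 0 of 10 were called, against 0.0259% of all genes, and 2 of 10 had an unadjusted p under 0.05, against 8.55% of all genes. These 2, H2-K1 and Tap1, were also the genes in which the groups did not overlap, with HOM higher, as in 1.5% of all genes. Of the 12 marker lists, 4 did not overlap between HET and HOM. Oligodendrocyte markers summed to 675 to 2534.2 TPM in HET and 366 to 657 in HOM, astrocyte markers to 140 to 291 and 102 to 127, and neuronal markers to 12.5 to 56.7 and 6.58 to 8.61. T and NK cell markers summed to 14.1 to 17.4 TPM in HET and 17.7 to 38 in HOM. Neutrophil and monocyte markers overlapped, and the part of these cells in the class I values was not tested.

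In the remaining genes the 3 genotypes overlapped at 3 months. Tapbp ranged from 241 to 269 TPM in WT, from 231 to 256 in HET and from 235 to 254 in HOM. Psmb8, the immunoproteasome subunit that replaces Psmb5, ranged from 180 to 201, from 176 to 208 and from 188 to 215 TPM. Psmb9, which replaces Psmb6, ranged from 124 to 136, from 118 to 139 and from 131 to 146 TPM. Nlrc5 stood at 6.68, 4.67, 4.25 and 5.2 TPM in WT, at 4.33, 5.07, 3.38 and 4.17 in HET and at 6.38, 6.14, 4 and 4.93 in HOM. Its intervals were the widest of the 10, from -0.31 to 0.38 for HOM minus WT.

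**Figure D2:**
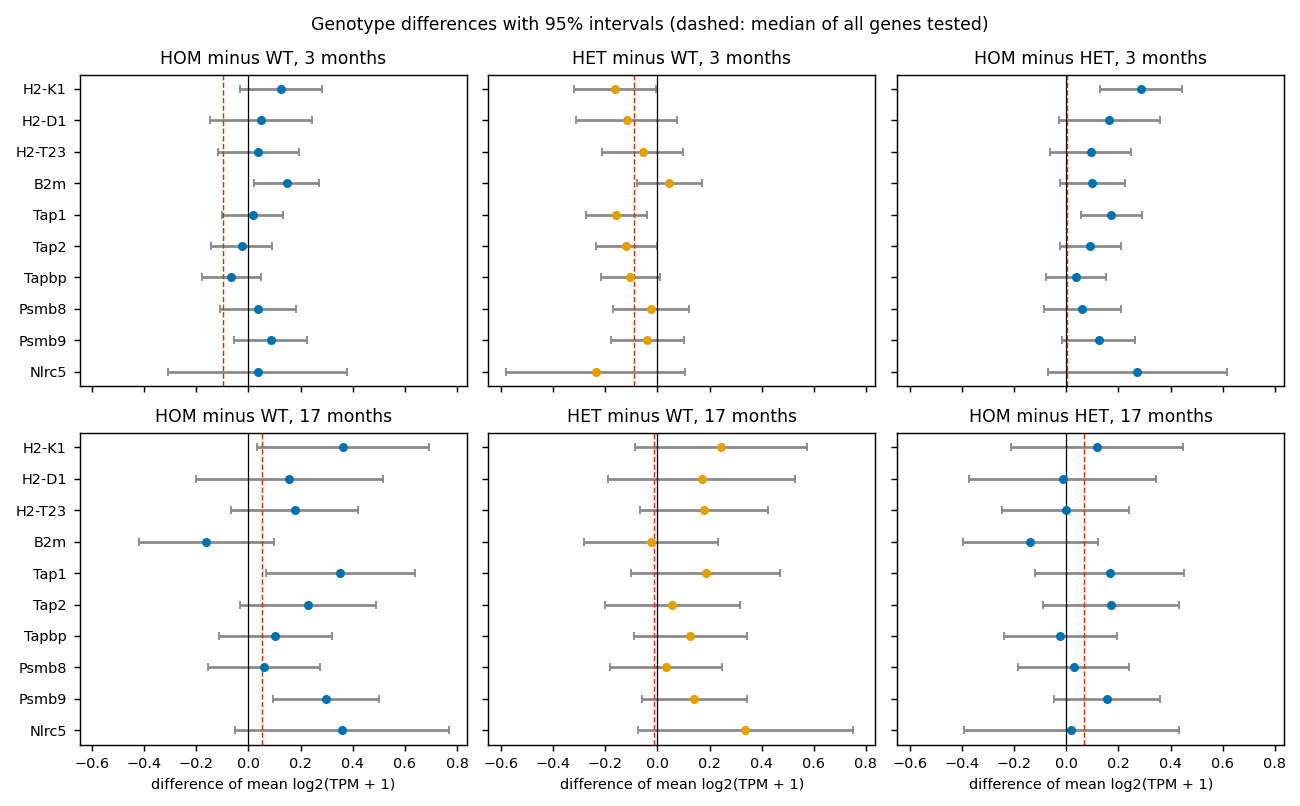
Difference of mean log2(TPM + 1) between genotypes (horizontal axis) for each of the 10 genes, with its 95% interval from limma, in 1 panel per comparison and age. The solid line marks 0 and the dashed line the median of all genes tested, and the 17-month intervals are wider than those at 3 months for each gene.

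At 17 months the question was the same in aged animals. The HOM minus WT differences had a median of 0.20, against 0.054 over all genes, and 9 of 10 values were above 0, against 60% of all genes. B2m was the exception, at -0.16. With libraries centred on their medians 8 of 10 were above 0, with a median of 0.13 against -0.019. By limma 0 of 10 were called, against 0.712% of all genes, and 3 of 10 (H2-K1, Tap1 and Psmb9) had an unadjusted p under 0.05, against 18.6% of all genes. The count over all genes depended on the scale, with 84 of 11792 genes called (55 higher) as deposited. It was 609 with centred libraries (204 higher), 633 after quantile normalization (278 higher) and 932 of 11173 in the RPKM tables (715 higher). Of the 10 class I genes 0 were called on each of these scales. Their smallest adjusted p by limma was 0.121 as deposited, 0.153 centred, 0.0848 after quantile normalization and 0.0696 by RPKM. Most of all genes were not called either, so 0 of 10 does not set the class I genes apart. In 1 gene, Psmb9, all HOM animals lay above all WT animals, as did 9.5% of all genes.

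H2-K1 stood at 956, 843, 803 and 974 TPM in the 17-month WT animals, at 1000.8, 1072.6, 1289.9 and 899 in HET, and at 1259.2, 890, 1486.5 and 1033.3 in HOM. The HOM animals spread most, from within the WT range to far above it, and the highest was HOM-7899. HOM minus WT was 0.36 (95% interval from 0.033 to 0.69, adjusted p = 0.225), and 0.24 without HOM-7899 (adjusted p = 0.545). H2-D1 stood at 1704.7, 1590.5, 1436.7 and 1836.4 TPM in WT, at 1815.0, 1815.1, 2298.4 and 1514.7 in HET, and at 2151.6, 1389.4, 2324.9 and 1591.0 in HOM. HOM animals held both the highest and the lowest value, and HOM minus WT was 0.16 (from -0.20 to 0.52, adjusted p = 0.674). With 1 animal left out at a time it ran from 0.040, without HOM-7899, to 0.29. H2-T23 ranged from 435 to 501 TPM in WT, from 446 to 555 in HET and from 422 to 593 in HOM.

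B2m stood at 6103.8, 6217.9, 6390.6 and 7190.0 TPM in WT, at 6282.0, 6116.9, 7307.3 and 5805.9 in HET, and at 6496.0, 4970.1, 6789.8 and 5071.4 in HOM. HOM-7893 and HOM-7901 lay below every other 17-month animal, and HOM-7835 and HOM-7899 within the WT range. HOM minus WT was -0.16 (95% interval from -0.42 to 0.096, adjusted p = 0.520).

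Tap1 stood at 59.7, 48.8, 51.6 and 56.4 TPM in WT, at 61.8, 60.7, 72.8 and 52.6 in HET, and at 74.7, 60.1, 85.9 and 59.3 in HOM. The lowest HOM animal lay just under the highest WT animal. HOM minus WT was 0.35 (95% interval from 0.066 to 0.64, adjusted p = 0.175), and 0.25 without HOM-7899 (adjusted p = 0.454). With 1 animal left out at a time it ran from 0.25 to 0.42. Tap2 ranged from 82.9 to 103 TPM in WT, from 74.6 to 107 in HET and from 99.9 to 121 in HOM, and Tapbp from 182 to 220, from 184 to 237 and from 198 to 240 TPM.

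Psmb9 stood at 139, 157, 150 and 158 TPM in WT, at 174, 157, 169 and 166 in HET, and at 182, 164, 223 and 179 in HOM. Every HOM animal exceeded every WT animal, and HET lay between them with overlap on both sides. HOM minus WT was 0.30 (95% interval from 0.094 to 0.50, adjusted p = 0.121), and 0.21 without HOM-7899 (adjusted p = 0.343). With 1 animal left out at a time it ran from 0.21 to 0.36. The partner subunit Psmb8 ranged from 221 to 265 TPM in WT, from 211 to 254 in HET and from 210 to 273 in HOM, with HOM minus WT at 0.060 (from -0.15 to 0.27). Nlrc5 stood at 6.93, 4.7, 5.58 and 7.06 TPM in WT, at 6.44, 9.35, 10.3 and 6.06 in HET, and at 8.06, 6.42, 10.7 and 7.2 in HOM. HOM minus WT was 0.36 (from -0.053 to 0.77, adjusted p = 0.342), and 0.23 without HOM-7899 (adjusted p = 0.708), and the groups overlapped. With 1 animal left out at a time the Nlrc5 difference ran from 0.23 to 0.45.

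Marker sums of other cells moved with these groups at 17 months. Monocyte markers summed to 45.4 to 133 TPM in WT and 154 to 801 in HOM, endothelial and mural markers to 273 to 344 and 395 to 522, and oligodendrocyte markers to 2359.6 to 6599.0 and 812 to 2030.5, without overlap in any of the 3 lists. Neutrophil markers ranged from 422 to 2565.9 TPM in WT, from 568 to 11432.1 in HET and from 2306.1 to 6177.4 in HOM. Their part in the class I values was not tested. HOM libraries held 42.4 ± 2.67 M alignments and WT libraries 30.4 ± 9.15 M (SD, n = 4). With sex as a term, the median of the 10 genes was 0.17 and the smallest adjusted p was 0.265.

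The HET minus WT differences at 17 months had a median of 0.16, against -0.012 over all genes, with 9 of 10 values above 0, against 46.8% of all genes. By limma 0 of 10 were called, against 0.237% of all genes, and 0 of 10 had an unadjusted p under 0.05, against 9.24% of all genes. In none of the 10 did all HET animals lie above all WT animals, as they did in 1.29% of all genes. The largest difference was that of Nlrc5, 0.34 (95% interval from -0.073 to 0.75, adjusted p = 0.689), and the next that of H2-K1, 0.24 (from -0.084 to 0.57, adjusted p = 0.754). HET-7795 carried the highest HET value of 7 genes, among them the heavy chains, B2m and Nlrc5, while HET-7796 carried the lowest HET value of 9 genes, all but Psmb9. HET-7796 had neutrophil markers at 11432.1 TPM and monocyte markers at 332 TPM. HET-7791 had nearly as high neutrophil markers, 11150.9 TPM, and monocyte markers at 271 TPM, with a mean deviation of 0.04 over the 10 genes. Between HET and WT 3 marker lists did not overlap, with oligodendrocyte markers at 420 to 1248.2 TPM in HET and 2359.6 to 6599.0 in WT, astrocyte markers at 123 to 162 and 196 to 415, and endothelial and mural markers at 167 to 250 and 273 to 344. Their part in the class I values was not tested. The HOM minus HET differences had a median of 0.024, against 0.069 over all genes, and of -0.058 against -0.013 with libraries centred on their medians. By limma 0 of 10 were called, against 1.86% of all genes, and 0 of 10 had an unadjusted p under 0.05, against 13% of all genes. Endothelial and mural markers, at 167 to 250 TPM in HET and 395 to 522 in HOM, were the 1 list without overlap.

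Whether a genotype difference itself differed between the ages was tested over all 24 animals and 11436 genes. For HOM against WT, limma called 0 of 10 genes, against 0.254% of all genes, and 2 of 10 had an unadjusted p under 0.05, against 21.8% of all genes. The B2m difference was lower at 17 months by -0.31 (SE 0.132, adjusted p = 0.179), and the Tap1 difference was higher by 0.34 (SE 0.145, adjusted p = 0.182). For HET against WT, 0 of 10 were called, against 0.691% of all genes, and 3 of 10 (H2-K1 at 0.41, Tap1 at 0.34 and Nlrc5 at 0.58) had an unadjusted p under 0.05, against 14.4% of all genes, the smallest adjusted p being 0.275. For HOM against HET, 0 of 10 were called, against 2.03% of all genes, and 0 of 10 had an unadjusted p under 0.05, against 11.2% of all genes.

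Ratios between genes of the same animal cancel anything that scales a whole library. A set of 8 ratios was computed, which makes 48 comparisons of genotypes. In 4 of these the groups did not overlap by TPM, nor by RPKM, which comes from the same libraries. The ratio of Psmb8 to Psmb9 at 17 months was lower in HOM than in WT without overlap by RPKM alone. The 4 comparisons share genes and HOM animals, so they are not independent. No share over ratios of other genes was computed, and the ratios are given as a description without a test. The ratio of H2-D1 to H2-K1 at 17 months was 1.84 ± 0.0581 in WT (SD, n = 4, from 1.78 to 1.89), 1.74 ± 0.0645 in HET and 1.59 ± 0.0776 in HOM (from 1.54 to 1.71), so that HOM lay below WT. At 3 months it was 1.35 ± 0.0533, 1.39 ± 0.111 and 1.28 ± 0.0513, with overlap. In each genotype the 17-month ratios lay above all 3-month ratios.

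B2m relative to the sum of H2-K1 and H2-D1 at 17 months was 2.57 ± 0.228 in WT (SD, n = 4, from 2.29 to 2.85), 2.2 ± 0.16 in HET and 1.95 ± 0.167 in HOM (from 1.78 to 2.18). Every HOM animal lay below every WT animal. At 3 months the ratio was 2.63 ± 0.271, 2.98 ± 0.215 and 2.74 ± 0.147, with overlap. In the RPKM tables the 17-month values were 2.31 ± 0.225, 1.98 ± 0.142 and 1.76 ± 0.158.

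Psmb9 relative to Psmb6, the constitutive subunit whose place it takes, was 0.934 ± 0.112 in WT, 0.983 ± 0.036 in HET and 1.18 ± 0.124 in HOM at 17 months (SD, n = 4). The HOM range, from 1.11 to 1.36, lay above both WT (from 0.827 to 1.09) and HET (from 0.941 to 1.03). Psmb8 relative to Psmb5 did not show this, at 1.87 ± 0.136, 1.97 ± 0.201 and 1.9 ± 0.15. H2-T23 relative to H2-D1 went from 0.437 ± 0.0274 at 3 months to 0.279 ± 0.0294 at 17 months in WT, with like values in HET (0.456 and 0.28) and HOM (0.433 and 0.282), and the 2 ages did not overlap in any genotype.

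**Figure D3:**
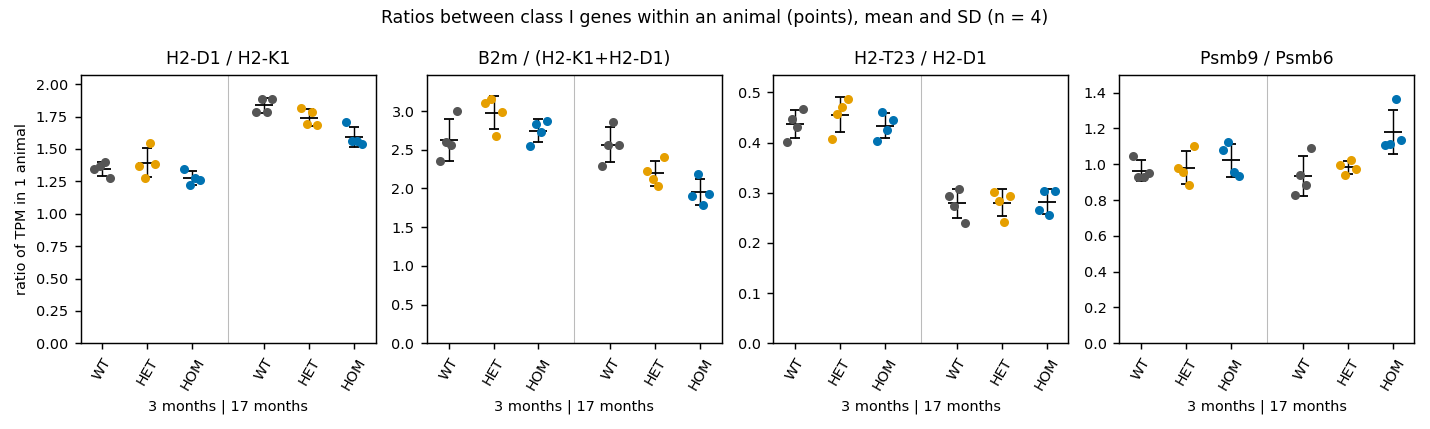
Ratio of the TPM of 2 genes, or of a gene and a sum of 2, in each animal (points, vertical axes from 0), with mean and SD of each genotype (n = 4) at 3 and 17 months. At 17 months HOM lies below WT in the ratio of H2-D1 to H2-K1 and in that of B2m to both heavy chains, and above WT and HET in the ratio of Psmb9 to Psmb6.

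On the deposited scale the genes varied together from animal to animal, with higher correlations at 17 months. The median r of 11426 other genes with the mean deviation of the 10 also rose, from -0.0464 to 0.273. Pairs of other genes were not computed. Over the 12 animals of an age, which pool the 3 genotypes and share a sequencing scale within each library, the 45 pairs of genes had a median Pearson r of 0.529 at 3 months (39 pairs positive) and 0.675 at 17 months (45 positive). H2-K1 and H2-D1 had r = 0.821 at 3 months and 0.924 at 17 months, Tap1 and Tap2 had 0.776 and 0.774, and H2-K1 and Nlrc5 had 0.721 and 0.907. B2m was uneven, with r = -0.491 against Tapbp and -0.351 against Tap2 at 3 months, and 0.152 and 0.0565 at 17 months, but 0.611 against H2-K1 and 0.544 against Nlrc5 at 3 months, and 0.711 against H2-D1 at 17 months. The mean deviation of an animal over the 10 genes ran from -0.19 to 0.32 on the log2 scale at 17 months and from -0.11 to 0.15 at 3 months. HOM-7899 (0.32), HET-7795 (0.20) and HOM-7835 (0.19) were highest at 17 months, and HET-7796 (-0.19), WT-7783 (-0.19), WT-7785 (-0.17) and HOM-7893 (-0.16) lowest. The TPM columns of HET-7796 and HOM-7893 had the lowest sums, 78.9% and 80.4% of what the unit implies, against 83.5% to 90.7% in the other 17-month animals. With libraries centred on their medians HET-7796 moved to 0.09, while HOM-7893 stood at -0.21 and HOM-7899 at 0.24. At 17 months HOM held animals near both ends of the range on either scale. At 3 months the centred values ran from -0.19 (WT-8326) to 0.25 (HOM-8282). The spread was thus wider at 17 months on the deposited scale but not with centred libraries.

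**Figure D4:**
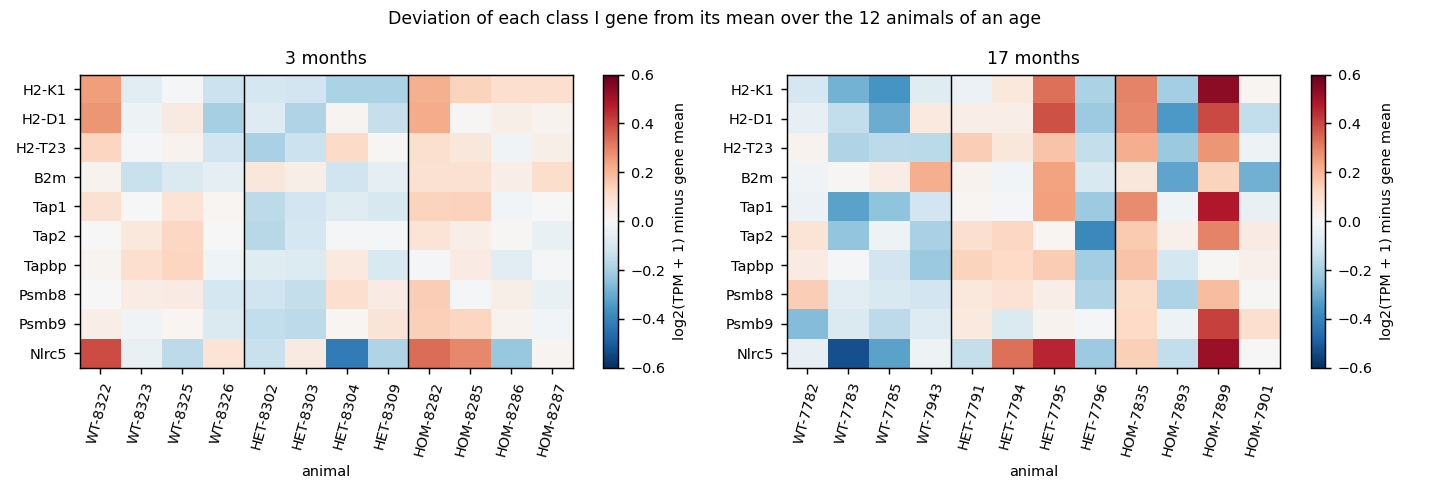
Deviation of log2(TPM + 1) from the mean over the 12 animals of an age (colour, from -0.6 to 0.6) for each of the 10 genes (rows) in each animal (columns, in the order WT, HET, HOM). On the deposited scale drawn here whole 17-month columns are red or blue, as for HOM-7899 and HET-7795 against HET-7796 and HOM-7893. The 3-month columns are paler on that scale alone. With centred libraries the lowest and highest 3-month column means are -0.19 (WT-8326) and 0.25 (HOM-8282). Those of the older mice are then -0.21 (HOM-7893) and 0.24 (HOM-7899), and the mean of the HET-7796 column goes from -0.19 to 0.09.

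Other genes of the pathway were read from fixed lists, which were chosen with earlier results of these data known. Among 19 other class I heavy chain genes, 11 passed the filter at each age, and limma called 0 in any of the 6 comparisons. Their median HOM minus HET difference at 3 months was 0.12, against 0.0013 over all genes, and in 5 of the 11 all HOM animals lay above all HET animals, as in 1.5% of all genes. In 3 of the 11 all HET animals lay below all WT animals, as in 9.99% of all genes. These 5 were H2-Q4, H2-Q6, H2-Q7, H2-M3 and Mr1, of which H2-Q6, H2-M3 and Mr1 are named here after their values were seen. Mr1, which presents vitamin metabolites to mucosal invariant T cells, stood at 11 ± 1.57 TPM in HET, 14.9 ± 1.63 in WT and 17.8 ± 0.57 in HOM (SD, n = 4), with HOM minus HET at 0.66 (95% interval from 0.43 to 0.88, adjusted p = 0.0595). H2-Q6 stood at 11.2 ± 3.36, 17.9 ± 2.47 and 24.1 ± 2.23 TPM, with HOM minus HET at 1.09 (from 0.71 to 1.47, adjusted p = 0.0653). H2-Q6 and H2-Q7 are close copies of each other, so reads could be split between them.

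At 17 months H2-Q4, a non-classical chain of the Q region, stood at 143 ± 12.6 TPM in WT, 168 ± 26.2 in HET and 217 ± 43 in HOM (SD, n = 4). Every HOM animal (187 to 280) exceeded every WT animal (133 to 160). Of the 11 other heavy chains tested this held for 1 alone, beside 9.5% of all genes. Its HOM minus WT difference was 0.59 (95% interval from 0.29 to 0.89, adjusted p = 0.0661). Mr1 did not repeat its pattern at 17 months, with 11.3 ± 3.33, 10.2 ± 7.14 and 11.3 ± 3.13 TPM and 1 HET animal listed at 0.

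The loading and trimming list (14 genes), the proteasome list (20 of 21 tested) and the list of interferon signalling and class I promoter regulators (24 genes) had 0 genes called in all 6 comparisons. Their HOM minus WT medians at 17 months were -0.11, 0.030 and 0.0097, against 0.054 over all genes. Tapbpl, a relative of Tapbp that edits peptides, stood at 41.6 ± 3.6 TPM in WT and 41.3 ± 6.58 in HOM at that age, and Psmb10, the remaining catalytic subunit of the immunoproteasome, at 143 ± 9.33 and 151 ± 13.6 TPM (SD, n = 4). Irf1, a factor that binds class I promoters, stood at 78.6 ± 9.92 and 97.5 ± 5.34 TPM, with HOM minus WT at 0.31 (95% interval from -0.058 to 0.69, adjusted p = 0.358).

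Type I interferon-stimulated genes (30 listed, 29 tested at 3 months and 30 at 17 months) also had 0 called in all 6 comparisons. At 17 months 27 of 30 values were above 0 for HOM minus WT, against 60% of all genes, with a median of 0.26 against 0.054. For HET minus WT 25 of 30 were above 0, against 46.8% of all genes, with a median of 0.18 against -0.012. With libraries centred on their medians these counts were 20 and 25, with medians of 0.19 and 0.20. All HOM animals lay above all WT animals in 1 of the 30, against 9.5% of all genes. All HET animals lay above all WT animals in 5 of the 30, against 1.29% of all genes. At 3 months 8 of 29 were above 0 for HOM minus WT, against 24.8% of all genes, with a median of -0.12 against -0.099. Centred libraries gave 14 of 29 there, with a median of -0.006 against 0.014 over all genes.

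The genes most like the class I set were ranked by the lower of their Pearson r values at the 2 ages with the mean deviation of the 10 genes, over 12 animals each. Il2rg, the common gamma chain of cytokine receptors, came first with r = 0.861 at 3 months and 0.891 at 17 months, where the median over 11426 genes was -0.0464 and 0.273. It stood at 15.1 ± 2.57, 12.8 ± 1.13 and 18.6 ± 2.84 TPM in the younger WT, HET and HOM mice, and at 31.9 ± 4.78, 38.4 ± 7.77 and 45.4 ± 16.6 TPM in the older ones (SD, n = 4). H2-M3, a non-classical chain that presents formylated peptides, followed with 0.839 and 0.77, then Aim1 with 0.77 and 0.776, and H2-Q4 with 0.751 and 0.845. B430306N03Rik, Ikbke, Amica1 and Cyp4f18 completed the first 8, with r from 0.737 to 0.854. These genes were chosen from all genes for this likeness, so their values are a description.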

How the data were processed

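RNA of CD11b-selected cells was read from a single end of stranded libraries, per the labels' protocols. For each age the authors deposited a table of TPM (20636 genes) and a table of RPKM with alignment totals, per the file headers. The TPM columns deposited for an animal add up to 78.9% to 90.7% of what the unit implies. TopHat2 2.1.1, Partek 7.17.0918, Salmon 0.8.2, DESeq2 and mm10 are named in the submitters' processing notes without saying which made what. The annotation and the use of strand in counting are not given in the sources used here. No table held counts, so no count model was used.

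Columns carry an animal number, whose genotype is given in the header of the RPKM table. The 17-month headers call 4 animals hemi, taken here as HET because a C1qa mean that the table lists for heterozygotes (6063.6 RPKM) equals the mean of these columns. limma 3.58.1 (R 4.3.3) was fitted to log2(TPM + 1) of all genes whose mean across an age's 12 animals reached 1 TPM, with 1 mean per genotype and variances moderated with a trend. Tests were two-sided, with Benjamini-Hochberg adjustment across every gene in the fit and calls at an adjusted p under 0.05. This scale understates changes of low genes such as Nlrc5. The targeted gene differed from WT in each mutant group (exact permutation test over 70 assignments, two-sided, p = 0.0286, the smallest it can give). The code of the fit was run on simulated data with independent normal noise per gene and no shift of whole libraries. That run does not bear on how stable the calls are here. Other settings tried were other pseudocounts, filters and scalings, RPKM, the 2 genotypes alone, sex as a term, array weights and leaving out each animal.

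The 10 genes, the gene lists and the tests were chosen with earlier results of these data known. Genes are named if they are among the 10, are called in a list or are set counterparts from it (Psmb5, Psmb6, Psmb10, Tapbpl, Irf1, H2-Q4, H2-Q7, and a gene that is not reported here), rank among the first 8 by likeness, or are the targeted gene. Mr1 and H2-Q6 fall outside this rule and were named after their values were seen. Markers of other cells are given as sums. Over the 24 animals these sums ran from 445 to 1282.2 TPM for border-associated macrophages, 26.8 to 60.4 for B cells and 27.8 to 98.9 for dendritic cells. They ran from 13.2 to 53.4 TPM for T and NK cells, 102 to 415 for astrocytes and 5.58 to 62.6 for neurons. Of the markers, Cd3e at 3 months and Mag at both ages averaged under 0.1 TPM.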

Additional observations from a re-analysis of the deposited data

Results flagged for a closer look

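In 66 groups of 4 animals (the 10 genes and the targeted gene in each genotype and age) the distance of the highest or lowest animal to its neighbour was compared with the range of the group by Dixon's criterion. It singled out 4 values, where chance alone gives about 1 group in 20. H2-D1 stood at 1042.5 TPM in HOM-8282, above 896 to 914 in the other 3-month HOM animals. H2-T23 stood at 501 TPM in WT-7782, above 435 to 442 in the other 17-month WT animals, and WT-7782 was the shallowest library, with 16.7 M alignments. Tapbp stood at 256 TPM in HET-8304, above 231 to 233 in the other 3-month HET animals, and this library had the highest oligodendrocyte marker sum of its age, 2534.2 TPM. Tapbp stood at 184 TPM in HET-7796, below 232 to 237 in the other 17-month HET animals, and this library had the lowest TPM sum, 78.9% of what the unit implies, and neutrophil markers at 11432.1 TPM. HET-7791, with neutrophil markers at 11150.9 TPM, was among the other 3. The part of depth or of other cells in these values was not tested.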

How the results depend on the processing

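No member of the set was called under any setting but array weights, which called 1 for HOM against WT at 3 months, 5 for HET against WT and 6 for HOM against HET at 3 months, 2 for HOM against WT at 17 months, and 2 and 7 for the age differences of HOM against WT and HET against WT. Array weights also called 1836, 3507, 3074, 1858, 3321 and 3045 genes of all in these comparisons, against 7, 5, 3, 84, 29 and 79 without weights, and the cause was not tested. The median difference moved for HOM against WT at 3 months to 0.15 with libraries centred on their medians, and for HET against WT at 3 months to 0.000304 with centring and -0.044 in the RPKM tables. Of 60 differences (10 genes, 6 comparisons), 20 changed sign in at least 1 refit (60 of 1317 refits), and none of these was larger than 0.117 in size. The cause was not tested.

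With centred libraries the values that changed sign were, for HOM against WT at 3 months, Tap2 at 0.086 and Tapbp at 0.047, for HET against WT at 3 months H2-T23 at 0.054, Tapbp at 0.0071, Psmb8 at 0.086 and Psmb9 at 0.071, for HOM against WT at 17 months Psmb8 at -0.012, and for HOM against HET at 17 months Psmb8 at -0.054 and Nlrc5 at -0.063. With quantile normalization they were H2-D1 at -0.045 and Tap2 at 0.021 (HOM against WT, 3 months), B2m at -0.0081, Psmb8 at 0.0094 and Psmb9 at 0.010 (HET against WT, 3 months), and H2-T23 at 0.031 and Nlrc5 at -0.078 (HOM against HET, 17 months). In the RPKM tables they were Tap2 at 0.034 (HOM against WT, 3 months), Psmb8 at 0.044 and Psmb9 at 0.030 (HET against WT, 3 months) and B2m at 0.00047 (HET against WT, 17 months). With sex as a term they were Nlrc5 at -0.026 (HOM against WT, 3 months), B2m at 0.0042 (HET against WT, 17 months) and Nlrc5 at -0.0011 (HOM against HET, 17 months). With array weights they were Tap1 at -0.020 and Nlrc5 at -0.079 (HOM against WT, 3 months), B2m at 0.118 (HET against WT, 17 months), and H2-K1 at -0.065, Psmb8 at -0.024 and Nlrc5 at -0.18 (HOM against HET, 17 months).

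Leaving out 1 animal at a time changed the sign of 13 differences. For HOM against WT at 3 months H2-D1 ran from -0.026 to 0.13, H2-T23 from -0.0027 to 0.079, Tap1 from -0.0092 to 0.043, Psmb8 from -0.0016 to 0.062 and Nlrc5 from -0.042 to 0.15. For HET against WT, Psmb8 ran from -0.068 to 0.013 at 3 months and B2m from -0.092 to 0.027 at 17 months. For HOM against HET at 17 months H2-K1 ran from -0.0085 to 0.24, with the lowest value without HOM-7899, H2-D1 from -0.13 to 0.12, H2-T23 from -0.072 to 0.091, Tapbp from -0.11 to 0.022, Psmb8 from -0.032 to 0.10 and Nlrc5 from -0.11 to 0.14. The 84 genes of all called for HOM against WT at 17 months fell to 1 without WT-7783, WT-7943, HOM-7893 or HOM-7899, to 2 without WT-7782 or HOM-7901 and to 38 without HET-7791, and rose to 133 without WT-7785, 159 without HOM-7835 and 367 without HET-7796. Over the settings without array weights that kept every animal, the genes called ran from 5 to 932 for HOM against WT, 0 to 220 for HET against WT and 45 to 299 for HOM against HET at 17 months, and from 2 to 26, 1 to 89 and 1 to 7 at 3 months. No paired analysis was possible because the table columns carry animal numbers that match no replicate number in the sample titles. Depth is given as alignments only and not per gene, so precision rests on 4 animals per group. With a filter at a mean of 5 TPM, Nlrc5 was not tested at 3 months.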
